A study of Mus musculus with 22 samples.

Results

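IgG2b cells are germinal center B cells whose antibody heavy chain has switched from the mu to the gamma 2b constant region. Here they were compared with IgM cells, which have not switched. A cell was counted as IgG2b or IgM from its receptor library: the productive heavy-chain contig with the most unique molecular identifiers (UMIs, which count captured transcripts) carried the constant gene IGHG2B or IGHM. Only cells in which 500 or more genes were detected and mitochondrial transcripts made up no more than 10% of UMIs entered. Of 4941 such cells with a productive heavy chain, 741 were IgG2b (188 in NP 1, 198 in NP 2 and 355 in OVA 1) and 2295 were IgM (729, 599 and 967). The other 1859 IgG cells (IgG1, IgG2c and IgG3 pooled) served as a second reference.

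The cells came from spleens of male C57BL/6 mice labelled as 8 weeks old. Libraries NP 1 and NP 2 held NP-binding germinal center B cells (B220+, Fas high, GL-7 high, NP+) sorted 13 days after immunization with the hapten conjugate NP(23)-KLH. Library OVA 1 held all germinal center B cells (B220+, Fas high, GL-7 high) after immunization with ovalbumin (OVA), and the sources used here do not give its day. Both antigens were given with alum and lipopolysaccharide, so that every cell compared here shares these adjuvants. IgG2b and IgM cells of a library were sorted and processed together. The number of mice behind a library is not stated either. The antigen, the NP gate and the library cannot be told apart between NP and OVA.

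In class switch recombination the enzyme AID cuts the switch regions in front of the constant genes, and the DNA between the cuts is lost. The V region, and with it the binding site, stays the same. Before a switch the target constant gene is transcribed from its own promoter without yielding protein. TGF-beta together with lipopolysaccharide is the classical stimulus for IgG2b in cultured mouse B cells, interferon-gamma favours IgG2c, and IL-4 favours IgG1. IgG2b binds Fc receptors and activates complement. In the germinal center, B cells mutate their receptors while they divide in the dark zone and compete for antigen and T cell help in the light zone, and some leave as memory or plasma cells.

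IgG2b made up 11.4% of cells with a heavy chain in NP 1 (exact Clopper-Pearson 95% interval 9.87 to 13.0), 14.0% in NP 2 (12.2 to 15.9) and 19.0% in OVA 1 (17.2 to 20.8). IgM made up 44.0%, 42.3% and 51.7%. These intervals cover counting error only. A clone was defined as cells of 1 library with the same heavy V gene, J gene and CDR3 bases. The IgG2b cells fell into 154, 159 and 186 clones. Of those, 21, 17 and 25 also held IgM cells, which is 13.6%, 10.7% and 13.4% of the IgG2b clones and 4.13%, 3.79% and 3.89% of the IgM clones. Between 19.2% and 21.7% of IgG2b cells lay in such mixed clones.

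The CDR3 is the part of the heavy chain built at the joint of V, D and J and the clearest mark of a clone. The sequences below are the CDR3 bases of leading IgG2b clones, shown because they say which receptors the compared cells carried. They run 5′ to 3′ from the conserved cysteine codon, and the fourth codon is in capitals. In IGHV1-72, the V gene known as V186.2 that dominates the NP response of this strain, a tyrosine codon (TAT or TAC) at this place is common among NP-binding receptors.
NP 1, IGHV1-72 with IGHJ2, 6 IgG2b and 1 IgM cell: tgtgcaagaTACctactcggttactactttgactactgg
NP 1, IGHV14-3 with IGHJ1, 5 IgG2b and 3 IgM cells: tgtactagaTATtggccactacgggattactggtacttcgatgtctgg
NP 2, IGHV1-72 with IGHJ2, 7 IgG2b and 2 IgM cells: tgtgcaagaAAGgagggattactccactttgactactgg
NP 2, IGHV1-72 with IGHJ2, 6 IgG2b and 0 IgM cells: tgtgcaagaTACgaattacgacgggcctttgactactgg
OVA 1, IGHV1-72 with IGHJ2, 39 IgG2b and 0 IgM cells: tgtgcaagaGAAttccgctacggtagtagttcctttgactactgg
OVA 1, IGHV1-26 with IGHJ4, 11 IgG2b and 1 IgM cell: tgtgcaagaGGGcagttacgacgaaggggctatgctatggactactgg

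The first IGHV1-72 clone of NP 2 has AAG at the fourth codon, and most of its cells carried the light chain gene IGLV2. The 39-cell clone of OVA 1 held no cell of any other isotype. Counting every IGHV1-72 and IGHJ2 cell of that library whose CDR3 had the same length and differed at 6 bases or fewer added 26 CDR3 sequences and gave 71 cells in all. Of these 70 were IgG2b, 1 was IgG2c and 0 were IgM, and 68 carried IGKV8-27. This family thus held 70 of the 355 IgG2b cells of OVA 1 and 0 of the 967 IgM cells.

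A second family of OVA 1 held both isotypes. Its 2 largest IgG2b clones used IGHV2-5 and IGHJ4 and differed at 1 base, T31G counted from the first base shown, which is in capitals here.
OVA 1, IGHV2-5, 16 IgG2b and 14 IgM cells: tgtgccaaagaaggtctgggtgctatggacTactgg
OVA 1, IGHV2-5, 13 IgG2b and 0 IgM cells: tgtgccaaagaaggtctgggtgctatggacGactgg
The first of these also held 10 IgG2c and 2 IgG1 cells, and the second held IgG2b cells only. Within 6 bases of the first, the library had 64 cells, 34 of them IgG2b and 17 IgM, and 61 of the 64 carried IGKV8-21.

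The share of IGHV1-72 was higher in IgG2b than in IgM cells of each library, with intervals that overlapped in the NP libraries and not in OVA 1. IGHV1-72 was found in 57.4% of IgG2b cells of NP 1 (50.0 to 64.6) and 53.8% of IgM cells (50.1 to 57.4). In NP 2 the shares were 67.7% (60.7 to 74.1) and 60.1% (56.1 to 64.0). In OVA 1 the gene was in 19.7% of IgG2b cells (15.7 to 24.2) and 6.72% of IgM cells (5.23 to 8.49). With each clone (1 CDR3 sequence) counted once, the gap in percentage points was 4.02 in NP 1, 10.3 in NP 2 (64.2% and 53.9%) and 7.14 in OVA 1 (14.0% and 6.84%), where it was 3.67, 7.58 and 13.0 over cells. In OVA 1 this does not count the expansion once: all 26 IGHV1-72 clones of IgG2b cells belong to the family of 70 cells above. With CDR3s of 1 V gene, J gene and length linked into families in steps of at most 6 bases and each family counted once, IGHV1-72 made up 1 of 86 IgG2b families of OVA 1 (1.16%) and 14 of 439 IgM families (3.19%), so the order of the isotypes turned there. In NP 1 and NP 2 it made up 41.8% and 48.5% of IgG2b families and 26.5% and 28.3% of IgM families, although such linking can join unrelated cells where many CDR3s are alike, as 134 IgM cells of NP 1 fell into 1 family. In IgG1, IgG2c and IgG3 cells of NP 1, IGHV1-72 was found in 64.7%, 61.9% and 58.6%, each above the share in IgG2b cells. The shares of these subclasses were 63.9%, 62.5% and 70.7% in NP 2 and 3.01%, 2.36% and 4.44% in OVA 1. With 3 libraries an exact sign-flip test cannot give a p below 0.25, so none is given for receptor features.

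Among the light-chain features given here, the isotypes' intervals did not overlap in OVA 1 for lambda chains over cells and for IGKV8-27. In NP 2 they did not overlap for IGLV2 over cells and for IGHV1-72 with IGLV2. Intervals over cells count related cells as independent. The 67 IgG2b cells of OVA 1 with IGKV8-27 belong to the family of 70 described above. Lambda chains, the usual partners of IGHV1-72 in the NP response, were found in 76.6% and 74.7% of IgG2b cells and 75.4% and 75.6% of IgM cells of NP 1 and NP 2. In OVA 1 they were in 0.845% (0.175 to 2.45) and 5.17% (3.86 to 6.76). Over clones of OVA 1 the lambda shares were 1.61% (0.334 to 4.64) and 5.75% (4.08 to 7.84), and these intervals overlapped. IGLV2 was in 10.6% of IgG2b cells of NP 1 (6.62 to 16.0) and 19.7% of those of NP 2 (14.4 to 25.9), against 6.17% (4.54 to 8.17) and 9.18% (6.99 to 11.8) of IgM cells. Over clones of NP 2 the IGLV2 shares were 15.7% (10.4 to 22.3) and 11.1% (8.38 to 14.4), and these intervals overlapped. In NP 2, IGHV1-72 cells with IGLV2 made up 17.7% of IgG2b cells and 4.01% of IgM cells (13.2% and 4.90% of clones), while in NP 1 they made up 3.19% and 3.84%. IGKV8-27 was in 18.9% of IgG2b cells of OVA 1 (14.9 to 23.3) and in 0.207% of IgM cells (0.0251 to 0.745). All 67 of these IgG2b cells also used IGHV1-72, against 0 of 967 IgM cells, which allows a share of up to 0.310%.

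Among IGHV1-72 cells, a tyrosine codon at the fourth place was found in 75.9% of IgG2b cells of NP 1 (66.7 to 83.6) and 75.0% of IgM cells (70.4 to 79.2). In NP 2 it was in 64.9% (56.2 to 73.0) and 80.0% (75.5 to 84.0), and over clones in 63.7% and 80.2%. Here too each clone is 1 CDR3 sequence, so the sequences of 1 family count separately. The leading NP 2 clone with AAG had 10 other CDR3s within 6 bases. The tyrosine share was not counted over families. The intervals of the isotypes overlapped in NP 1 and not in NP 2. The median CDR3 length was 12 residues between the conserved ends for both isotypes in every library.

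Expansion differed between libraries as well. Cells in clones of 2 or more cells made up 38.3%, 38.9% and 66.2% of IgG2b cells in NP 1, NP 2 and OVA 1, and 46.6%, 40.9% and 50.1% of IgM cells. The intervals of the isotypes overlapped in both NP libraries (31.3 to 45.7 and 43.0 to 50.3 in NP 1) and not in OVA 1 (61.0 to 71.1 and 46.9 to 53.3). The largest clone of a library held at most 6 and 7 IgG2b cells in the NP libraries and 39 in OVA 1, where the largest held 33, 22 and 15 IgM cells.

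**Figure D1:**
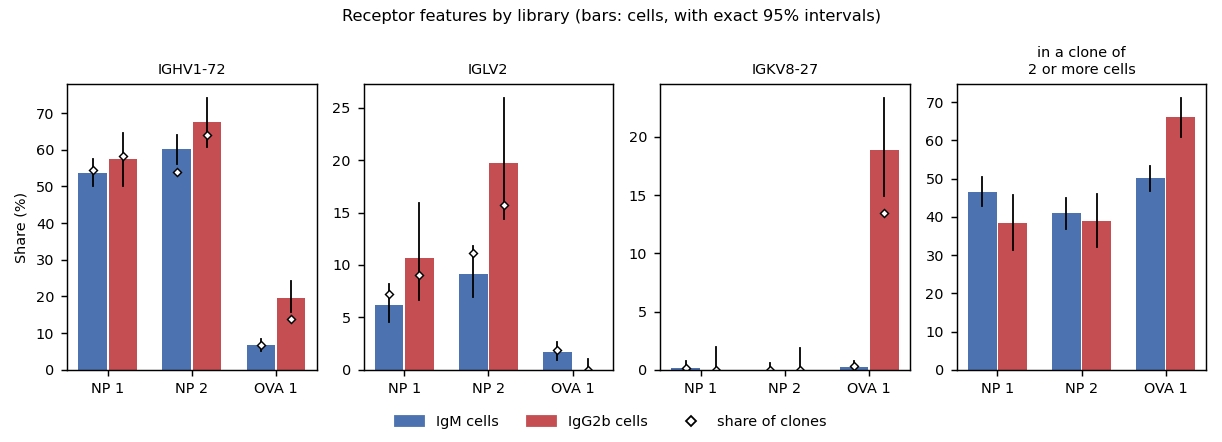
Share of IgM (blue) and IgG2b (red) cells with a receptor feature in each library, in percent; bars are cells with exact 95% intervals for counting error and diamonds are clones counted once. For IGHV1-72 the bars lie furthest apart in OVA 1 and the diamonds in NP 2, and IGKV8-27 is almost absent outside the IgG2b cells of OVA 1.

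The heavy-chain constant genes were also counted in the gene expression libraries. They lie on chromosome 12 of GRCm38.p6, transcribed towards lower coordinates in the order Ighm (113418826 to 113422730), Ighd, Ighg3 (113357442 to 113361232), Ighg1, Ighg2b (113304314 to 113307933), Ighg2c (113287389 to 113288932), Ighe and Igha. In the gene expression library Ighg2b had a UMI in 98.9%, 94.9% and 97.5% of IgG2b cells and 9.05%, 7.01% and 10.2% of IgM cells. Ighm had one in 99.6%, 99.0% and 98.9% of IgM cells and 28.7%, 29.8% and 24.5% of IgG2b cells. The arms were chosen by the constant gene of the contig, so these shares are no independent check of the labels. For comparison, 104 cells of T-like and myeloid-like clusters without a productive heavy chain were counted. Of these, 58.7% had an Ighm UMI, at a median of 4130.5 UMIs per cell. The Ighm share of IgG2b cells (median 8644 UMIs) was lower, so the 104 cells do not measure a background common to all cells. Where the Ighm UMIs of either group came from was not tested.

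The flanking constant genes were not alike in the arms. Ighg3, which lies upstream of Ighg2b and is lost in a switch to it, had a UMI in 34.98%, 33.6% and 29.1% of IgM cells and 9.57%, 13.6% and 6.20% of IgG2b cells. Ighg1, which lies between Ighg3 and Ighg2b, did not share this order. It had a UMI in 20.6%, 15.9% and 10.8% of IgM cells and 22.9%, 12.1% and 16.3% of IgG2b cells. Ighd was in 25.7%, 22.2% and 28.4% of IgM cells and 3.72%, 3.03% and 2.82% of IgG2b cells. Ighg2c, the next gene downstream, was in 19.1%, 15.7% and 24.5% of IgG2b cells and 6.04%, 4.34% and 2.69% of IgM cells. In the T-like and myeloid-like cells Ighg3 and Ighg2c each had a UMI in 1.92% (0.234 to 6.77) and Ighd in 0.962%. With cells of at least 2500 UMIs thinned to that number and shallower cells left out, the order held for Ighg2c and Ighg3. Ighg2c was in 13.7%, 9.33% and 10.6% of IgG2b cells and 3.15%, 2.25% and 1.19% of IgM cells. Ighg3 was in 6.01%, 8.29% and 3.52% against 17.9%, 15.6% and 12.04%. Ighg2b and Ighg2c resemble each other in sequence and how reads shared by both were counted is not stated, so Ighg2c levels in IgG2b cells are uncertain.

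**Figure D2:**
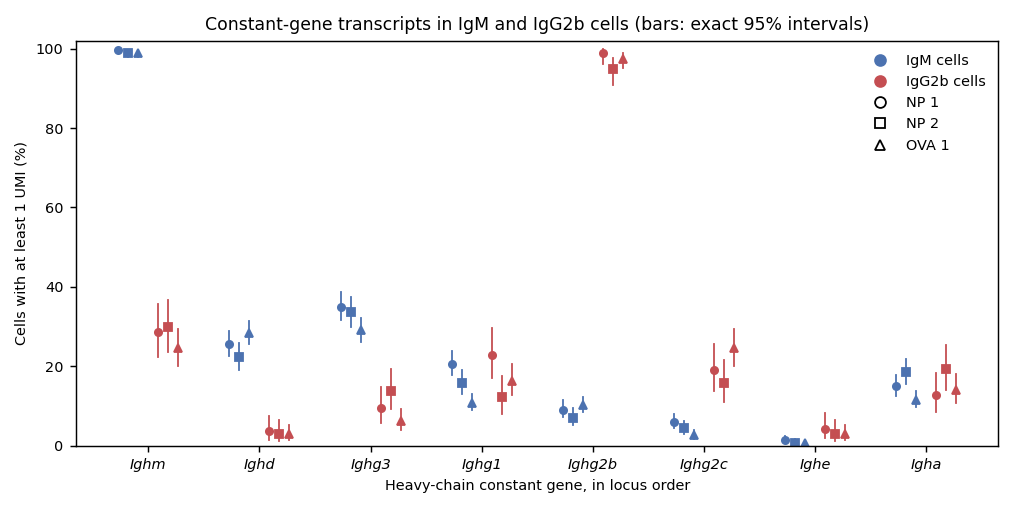
Percent of IgM (blue) and IgG2b (red) cells with at least 1 UMI of each heavy-chain constant gene, in the order of the locus, by library (symbols), with exact 95% intervals. Ighd and Ighg3 are higher in IgM cells, and Ighg2c is higher in IgG2b cells in all 3 libraries. Ighg1 is higher in IgG2b cells of NP 1 and OVA 1 and lower in those of NP 2.

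For gene expression, counts were summed over the cells of each library and isotype, without the 225 immunoglobulin genes, and compared with the library as a block. In such sums more cells expressing a gene and more RNA per cell cannot be told apart. The sums held 1598870, 2059436 and 3366847 UMIs for IgG2b and 5429057, 5524626 and 8734891 for IgM in NP 1, NP 2 and OVA 1. The median cell had 7711, 9915.5 and 8549 UMIs in the IgG2b arm and 6697, 8607 and 7930 in the IgM arm. With cells of at least 2500 UMIs thinned to that number and shallower cells left out, 77 genes passed. Germinal center B cell markers were present in both arms: Bcl6 stood at 97.6, 77.2 and 87.0 CPM in IgG2b cells of NP 1, NP 2 and OVA 1 and at 100.9, 77.3 and 68.6 in IgM cells. The 12 markers of the list together came to between 0.967 and 0.981 times their IgM level. All levels below are given as counts per fixed total (CPM, UMIs of the gene over all non-immunoglobulin UMIs of the sum), in the order NP 1, NP 2, OVA 1. Levels are not scaled by gene length, so they compare a gene between cells and not genes with each other.

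IgG2b cells had less of a set of genes known from naive, memory and recirculating B cells, and more of several germinal center regulators. Of 9705 genes tested, 193 (1.99%) passed an adjusted p of 0.05 in edgeR's quasi-likelihood test, with 58 higher (0.598%) and 135 lower (1.39%) in IgG2b cells. The median difference over all genes was -0.004 on the log2 scale, and 49.0% of them lay above 0. Of the 193, 183 moved the same way in all 3 libraries, and for 82 the sums of the isotypes did not overlap after scaling, as was so for 2.48% of all tested genes with IgG2b higher and 3.11% with IgG2b lower. DESeq2 with the same block called 19, all among the 193. Without OVA 1, 60 genes passed, and with the libraries not used as a block 0 passed (176 at an unadjusted p under 0.05).

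Large decreases were in genes of B cells outside the germinal center reaction. Klf2 (chromosome 8, 72319062 to 72321654) encodes a transcription factor that keeps lymphocytes quiescent and recirculating. It stood at 13.8, 9.23 and 8.61 CPM in IgG2b cells and 23.4, 32.6 and 49.8 in IgM cells, a log2 difference of -1.95 (SE 0.19, adjusted p = 1.24e-07 in edgeR). Every IgG2b sum lay below every IgM sum. Ccr7, which guides B cells towards T cell zones, was at 0.625, 0.971 and 3.27 against 6.08, 3.44 and 10.6 (-1.94 on the log2 scale, SE 0.36). Ccr6, a chemokine receptor of naive and memory B cells, was at 1.25, 2.43 and 5.05 against 6.26, 4.16 and 27.6 (-2.21, SE 0.28). For Ccr7 the sums of the isotypes did not overlap, and for Ccr6 the IgG2b sum of OVA 1 exceeded the IgM sum of NP 2. Both genes rest on few IgG2b transcripts. In library order the IgG2b sums held 1, 2 and 11 Ccr7 UMIs and 2, 5 and 17 Ccr6 UMIs. The IgM sums held 33, 19 and 93 Ccr7 UMIs and 34, 23 and 241 Ccr6 UMIs.

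Plac8 (chromosome 5, 100551589 to 100572253) was at 5.004, 0 and 11.6 in IgG2b cells and 18.97, 17.4 and 71.1 in IgM cells, a difference of -2.72 (SE 0.20, adjusted p = 1.31e-09 in edgeR). Rin3, a Rab5 regulator of endocytosis, showed the largest fitted difference, -3.56 (SE 0.51), with 0, 0 and 4 UMIs in the IgG2b sums and 20, 21 and 89 in the IgM sums. Sdc4, a membrane proteoglycan, was at 0, 1.46 and 3.27 against 5.16, 5.79 and 21.2. Klf3, a further Kruppel-like factor of B cell subsets, was at 0.625, 0 and 1.19 against 2.58, 3.26 and 6.41. A level of 0.625 in the IgG2b sum of NP 1 is 1 UMI. In all 4 the sums of the isotypes did not overlap. Pde2a, Plaur (the urokinase receptor), Fam43a, Adam19, Fcrl5 (an Fc receptor-like protein), Zfp318 (a factor needed for surface IgD) and Gm43218 fell by 1.61 to 2.29 on the log2 scale.

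Of 22 memory and naive B cell genes on the list, 22 were tested, 10 fell and 0 rose, with a median of -0.73 where all genes had -0.004. Beside Klf2, Ccr6, Ccr7 and Klf3 these included Fcmr (the IgM Fc receptor), Cd38, Zeb2, Cd55 and Ms4a4c. Fcmr fell by 0.50 (SE 0.06) and was at 229.5, 302 and 239 against 355, 346 and 368. Cd38, high on naive and memory and low on germinal center B cells, was at 16.9, 13.1 and 16.3 against 27.8, 22.6 and 41.8 (-1.09, SE 0.15). Of the 3 members above 0, Fcer2a stood at 0.04 (adjusted p = 0.9) and Vim at 0.01 (adjusted p = 0.973). DESeq2 called 1 member, and none of those named here.

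Clusters moved with this list. In a clustering of all passing cells, 1 cluster of 562 cells led by Ccr6 and Klf2 was memory or naive-like, and it held 10.2%, 11.5% and 21.5% of IgM cells but 5.32%, 3.54% and 4.23% of IgG2b cells. Since the same genes define the cluster, these shares are a description. Leaving out that cluster and the T-like and myeloid-like clusters reduced the calls to 114, with 51 higher and 63 lower, and 108 of the 193 passed again. In that fit 16 of the 22 list members were tested and 2 fell, Klf2 by 1.55 and Fcmr by 0.32, with a median of -0.18. Without OVA 1, 5 members fell. With each clone counted by 1 cell, 10 of 20 tested fell. Over all lists 34 genes passed, of which 30 were tested without these clusters: 17 passed again and 13 did not, 4 of them (Cd38, Zeb2, Cd55 and Ms4a4c) on the memory and naive list.

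Genes higher in IgG2b cells included Slpi (chromosome 2, 164354070 to 164356507), a secreted inhibitor of serine proteases. It was at 159, 73.3 and 116 in IgG2b cells and 35.7, 43.1 and 46.02 in IgM cells, a difference of 1.41 (SE 0.13, adjusted p = 3.11e-08 in edgeR). The lowest IgG2b sum lay above the highest IgM sum. Ccdc175 (chromosome 12, 72101292 to 72185029), a coiled-coil protein, had the largest increase, 1.90 (SE 0.27), from 3.4997, 3.62 and 2.40 in IgM cells to 10.01, 16.5 and 9.21 in IgG2b cells. Chrna9, a nicotinic acetylcholine receptor subunit, was at 20.01, 15.1 and 15.1 against 6.63, 9.05 and 4.92 (1.30, SE 0.21). Emp2, an epithelial membrane protein, was at 12.5, 15.5 and 12.5 against 5.34, 9.59 and 1.72 (1.46, SE 0.28). The sums did not overlap for any of these 4 genes.

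Osbpl3, an oxysterol-binding protein relative, rose by 1.42 (SE 0.27), but almost all of this came from the NP libraries: it was at 30.02, 11.2 and 1.78 against 8.84, 4.16 and 1.60. Xlr4a and Cobl (an actin nucleator) had their largest gap in OVA 1, where they were at 15.4 in IgG2b cells each and at 3.66 and 5.27 in IgM cells. Vopp1, Parm1, Mgll (monoglyceride lipase), Irak1bp1, Hist2h2ac (a histone H2A gene) and Serpinf1 rose by 0.61 to 1.10, each in all 3 libraries. Cxcr3, the receptor for interferon-induced chemokines, was at 10.6, 17.97 and 45.4 against 6.82, 11.2 and 25.2 (0.77, SE 0.14, adjusted p = 0.0014 in edgeR). It was higher in IgG2b cells of each library, and in both isotypes the level was lowest in NP 1 and highest in OVA 1.

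**Figure D3:**
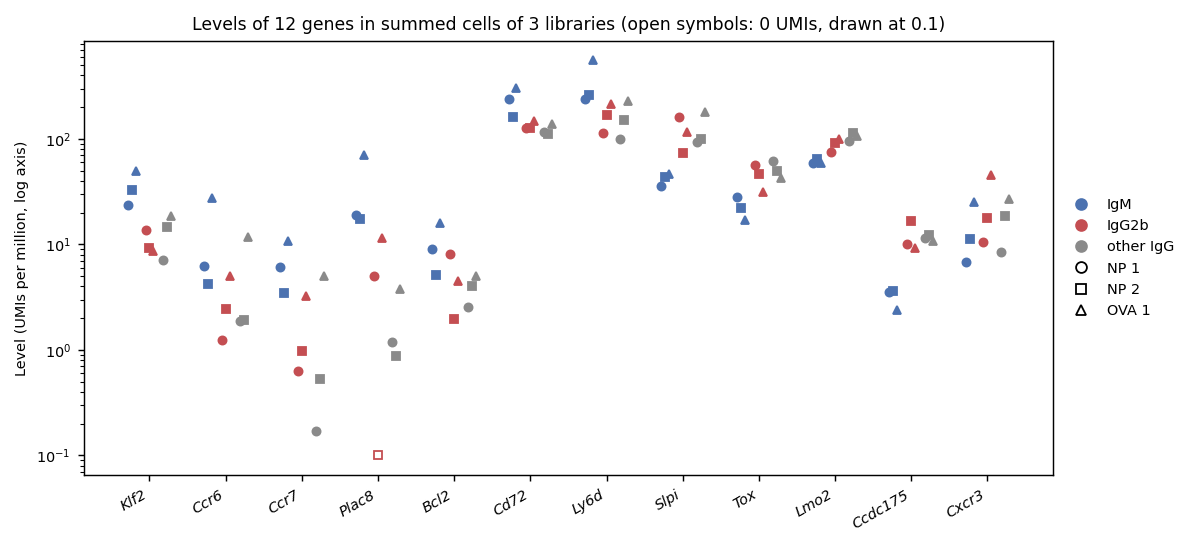
Level of 12 genes in CPM (log axis) in summed IgM (blue), IgG2b (red) and other IgG cells (grey) of NP 1 (circles), NP 2 (squares) and OVA 1 (triangles); an open symbol stands for 0 UMIs. Klf2 to Ly6d lie lower in IgG2b than in IgM cells of each library, and Slpi to Cxcr3 lie higher.

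Of 22 germinal center factors, 4 rose and 0 fell, with a list median of -0.003. Tox (chromosome 4, 6686353 to 6991557), an HMG-box transcription factor, rose from 27.997, 22.3 and 16.9 in IgM cells to 56.9, 46.1 and 31.2 in IgG2b cells (0.97, SE 0.11, adjusted p = 4.39e-06 in edgeR). Lmo2, a transcriptional adaptor typical of germinal center cells, was at 75.7, 90.8 and 98.9 against 59.1, 63.9 and 59.1 (0.56, SE 0.08). Mef2b, which drives Bcl6 transcription, was at 631, 630.3 and 588 against 537, 541 and 481 (0.24, SE 0.04). Basp1, a membrane-associated protein, rose by 0.32 (SE 0.05). All 4 passed again without the memory or naive-like cluster, with 1 cell per clone and without OVA 1. Within DZ-like cells 1 of the 4 passed and Lmo2 stood at -0.35, and within LZ-like cells 0 passed. An unnamed cluster with Lmo2 among its 10 leading genes held 123 of the 741 IgG2b and 211 of the 2295 IgM cells. Pax5, which maintains B cell identity, was at 177, 148 and 125 against 207, 164 and 143 (-0.20, adjusted p = 0.0837), and Spib at -0.14 (adjusted p = 0.318).

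Receptor signaling genes showed 1 rise and 3 falls among 29 tested members. Cd72 (chromosome 4, 43447724 to 43455102), a coreceptor that dampens B cell receptor signals, was at 127, 127 and 149 in IgG2b cells and 237, 161 and 302 in IgM cells (-0.81, SE 0.08, adjusted p = 2.17e-07 in edgeR), with no overlap between isotypes. It also fell, by 0.62, without the memory or naive-like cluster, and it was called without OVA 1. The Src-family kinase gene Blk was at 196, 206 and 232 against 258, 218 and 297 (-0.30, SE 0.06), and without that cluster it did not pass (-0.20, adjusted p = 0.123). Cd79b, the signaling partner of surface immunoglobulin, fell by 0.17 (SE 0.04). Pik3ap1, the adaptor BCAP that links the receptor to PI3-kinase, was at 91.9, 95.7 and 109 against 82.7, 79.3 and 78.99 (0.31, SE 0.07). Inpp5d, which encodes the phosphatase SHIP-1, was at 0.18 (adjusted p = 0.214). The list median was -0.02.

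No gene of the switching machinery, or of the signals known to direct a switch to IgG2b, passed the test. Of 29 class switching and repair genes tested, 0 passed in edgeR, 4 had an unadjusted p under 0.05, and DESeq2 called 0. The 2 leading members on each side were H2afx (0.15), Rev1 (0.21), Lig4 (-0.33) and Rif1 (-0.14), with adjusted p between 0.205 and 0.701. Of 19 TGF-beta, lipopolysaccharide and related genes tested, 0 passed in edgeR, 2 had an unadjusted p under 0.05, and DESeq2 called 0. Runx3, which acts with Smad proteins downstream of TGF-beta, was at 11.9, 12.6 and 16.9 against 18.4, 10.1 and 26.7 (-0.46, SE 0.18, adjusted p = 0.263), lower in NP 1 and OVA 1 and higher in NP 2. Tgfb1 was at -0.12 (SE 0.06, adjusted p = 0.454), Tnfrsf13b (TACI, a receptor for BAFF and APRIL) at 0.16 (adjusted p = 0.298) and Tnfrsf13c (the BAFF receptor) at 0.09 (adjusted p = 0.521).

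Of 16 genes for interferon-gamma, IL-4 and IL-21 signals, 1 rose and 2 fell. Ifngr1, a chain of the interferon-gamma receptor, was at 71.9, 50.5 and 135 against 55.8, 53.9 and 82.3 (0.43, SE 0.10, adjusted p = 0.0109 in edgeR), with the rise in NP 1 and OVA 1 and not in NP 2. Il10ra, the IL-10 receptor, was at 15.01, 12.6 and 25.2 against 33.5, 20.3 and 47.4 (-0.94, SE 0.13). Il9r, a receptor of memory B cells, was at 5.004, 3.88 and 40.99 against 13.3, 6.52 and 56.1 (-0.59, SE 0.14), and without the memory or naive-like cluster it did not pass (-0.37, adjusted p = 0.494). Tbx21, which encodes T-bet, a factor tied to IgG2c, was at 13.1, 13.6 and 24.1 against 14.2, 9.59 and 17.3 (0.33, adjusted p = 0.47).

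Of 18 tested interferon-response genes 14 lay below 0, 3 fell and 0 rose, with a list median of -0.26. Ly6a (Sca-1) was at 143, 156 and 214 against 204, 228 and 349.5 (-0.63, SE 0.06, adjusted p = 7.37e-08 in edgeR). Gbp3, a guanylate-binding protein, was at 7.51, 8.74 and 10.4 against 13.6, 12.9 and 20.7 (-0.87, SE 0.19), and Ifi27 fell by 0.43 (SE 0.11). Ly6a and Gbp3 also fell without the memory or naive-like cluster, and Ifi27 did not pass there (-0.39, adjusted p = 0.0897). Ifi47 stood above 0 at 0.30 (adjusted p = 0.206) and Samhd1 at 0.05 (adjusted p = 0.829).

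Among 19 T cell help genes tested only Lta, a lymphotoxin, passed, at 144, 117 and 255 against 140.2, 83.3 and 166 (0.42, SE 0.07), with most of the gap in NP 2 and OVA 1. Without NP 1, 5 members of this list rose. Without OVA 1, 0 rose and Il4i1 fell. Tnfsf9 was at 0.38 (adjusted p = 0.0705), Slamf6 at -0.18 (adjusted p = 0.283) and Il4i1 at -0.14 (adjusted p = 0.547). Of 22 NF-kB and receptor response genes, 0 passed in edgeR and in DESeq2, with 5 at an unadjusted p under 0.05; Egr1 and Relb stood at 0.26 and 0.22, and Cd83 and Cd69 at -0.16 and -0.29. Of 17 confinement and migration genes tested, Rgs1 and Cxcr3 rose and S1pr4 fell. Rgs1, which limits chemokine receptor signals, was at 11.3, 78.7 and 183 against 9.95, 60.3 and 107 (0.61, SE 0.08). S1pr4, a sphingosine-1-phosphate receptor, was at 22.5, 10.7 and 22.9 against 26.7, 20.6 and 32.5 (-0.54, SE 0.14), and without the memory or naive-like cluster it did not pass (-0.35, adjusted p = 0.498). Without OVA 1, 0 members of this list passed.

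Survival, plasma cell and proliferation genes changed in few members. Bcl2, the antiapoptotic factor that germinal center cells hold low, was at 8.13, 1.94 and 4.46 against 9.03, 5.07 and 15.8 (-1.26, SE 0.29, adjusted p = 0.0134 in edgeR), and it was the only one of 19 tested Bcl2 family and apoptosis genes to pass. The NP 1 levels of Bcl2 lay close together, and without OVA 1 or without the memory or naive-like cluster Bcl2 was not called (adjusted p = 0.498 in the latter fit). Of 15 plasma cell genes tested, the chaperone gene Hspa5 rose by 0.19 (SE 0.05) and Sub1 fell by 0.56 (SE 0.10). Without the memory or naive-like cluster neither passed, with Hspa5 at 0.18 (adjusted p = 0.123) and Sub1 at -0.14 (adjusted p = 0.846). Of 30 S phase genes, Tyms (thymidylate synthase) rose by 0.33 (SE 0.08), from 71.1, 66.8 and 75.2 to 76.3, 84.97 and 104, and did not pass without that cluster (0.25, adjusted p = 0.203). Of 35 G2 and M phase genes, 0 passed in edgeR and in DESeq2, with 4 at an unadjusted p under 0.05 and a median of 0.005.

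Metabolic lists had small differences and no calls in edgeR or DESeq2. Of 16 glycolysis genes tested 15 lay above 0, with a median of 0.13 and 7 at an unadjusted p under 0.05; Ldha was at 674, 522 and 619 against 518, 507 and 548 (0.18, SE 0.05, adjusted p = 0.0572). Of 25 MYC targets 21 lay above 0, with a median of 0.05 and 6 at an unadjusted p under 0.05. Of 51 cytosolic ribosomal genes 49 lay below 0, with a median of -0.05 and 5 at an unadjusted p under 0.05. The 78 nuclear-encoded and 13 mitochondrially encoded genes of oxidative phosphorylation had medians of -0.01 and -0.05, with 4 and 3 at an unadjusted p under 0.05. MHC class II presentation had 0 calls among 16, 2 at an unadjusted p under 0.05 and a median of -0.02. Of 10 genes of the response to tissue dissociation, Fos rose by 0.58 (SE 0.10) and Ier2 fell by 0.62 (SE 0.14). Without the memory or naive-like cluster Ier2 did not pass (-0.37, adjusted p = 0.360).

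Few markers of other cell types had enough counts to be tested. Of 11 T cell, 6 NK, 12 myeloid and 7 erythroid marker genes, 1, 0, 2 and 3 had enough counts to be tested and 0 passed in edgeR and in DESeq2, with 0 at an unadjusted p under 0.05. The 10 defining T cell markers summed to 90.3 to 115 CPM in IgG2b cells and 84.6 to 118 in IgM cells, nearly all of it Lck. The 10 defining granulocyte and macrophage markers summed to 1.25, 1.94 and 53.5 in IgG2b cells and 3.32, 20.3 and 27.4 in IgM cells. Their part in the results was not tested one by one; the fit without the T-like, myeloid-like and memory or naive-like clusters is given above.

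**Figure D4:**
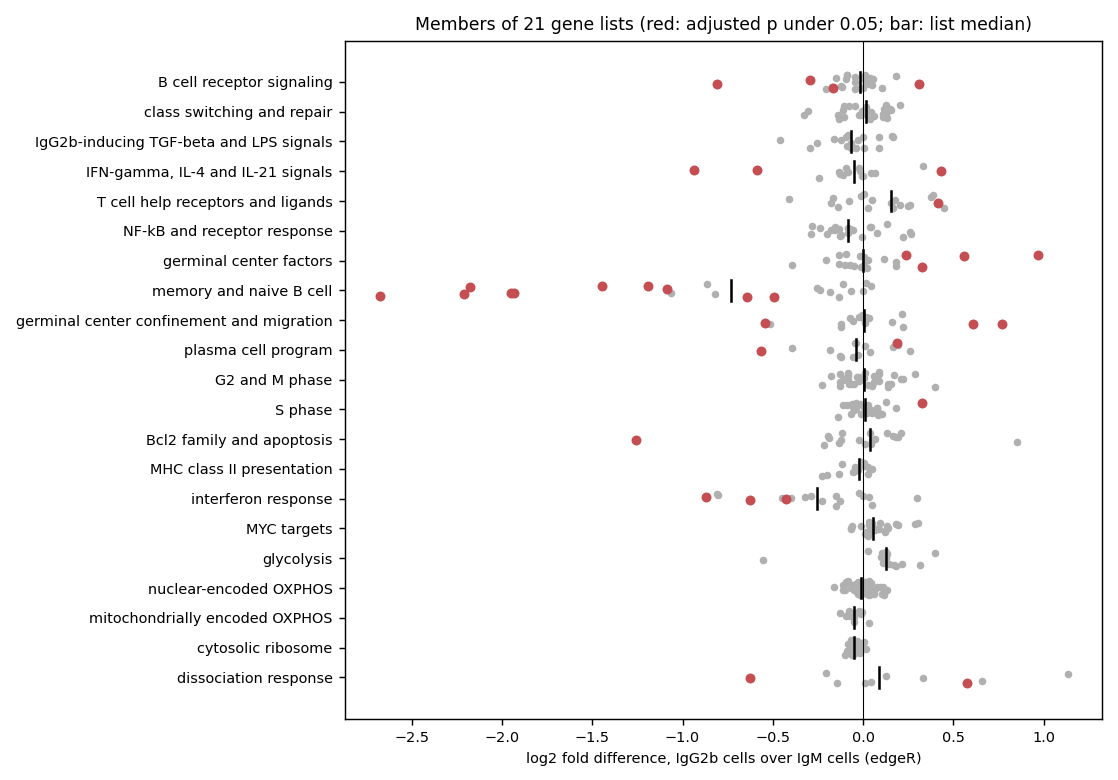
Log2 difference of IgG2b over IgM cells for the tested members of 21 gene lists (points), with members at an adjusted p under 0.05 in red and the list median as a bar. The memory and naive list has its median at -0.73 with 10 red points below 0, while the switching and repair list has none.

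Against the other IgG cells the IgG2b cells differed in few genes, among them 7 histone genes. Of 9605 genes tested, 14 passed (0.146%), 12 higher (0.125%) and 2 lower (0.0208%), and 567 had an unadjusted p under 0.05. DESeq2 called 1, which was not a histone gene, and 1 passed with each clone counted by 1 cell. Hist1h1e, a gene of the linker histone H1, was at 78.2, 169 and 134 in IgG2b cells and 76.6, 104 and 93.4 in other IgG cells (0.47, SE 0.08, adjusted p = 9.45e-05 in edgeR). The gap was small in NP 1 and larger in NP 2 and OVA 1. Hist1h1d was at 37.5, 76.7 and 63.9 against 36.5, 52.9 and 28.2 (0.64, SE 0.11), and Hist1h1a at 36.9, 60.7 and 38.6 against 34.6, 37.5 and 19.5 (0.61, SE 0.12). Hist1h1b and Hist1h1c rose by 0.39 and 0.51. Hist1h3e and Hist1h3g also passed, at 0.70 and 1.12, but did not rise in every library. Hist1h3e was lower in IgG2b cells of OVA 1 (33.3 against 36.5), and Hist1h3g was slightly lower in those of NP 1 (5.004 against 5.09). Replication-dependent histone transcripts peak in S phase and lack the usual poly(A) tail. Of 44 genes whose symbols begin with Hist, 39 lay above 0 in this comparison and 7 passed, with a median of 0.25. Against IgM cells the same 44 genes had a median of 0.09 in IgG2b cells, with 28 above 0 and 4 passing, and of -0.16 in other IgG cells, with 7 above 0. Several of them are near-identical copies between which reads may be split.

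Brca1, which works in homologous recombination, was at 41.9, 30.6 and 28.2 in IgG2b cells and 26.5, 24.4 and 16.7 in other IgG cells (0.57, SE 0.13). Prc1, a protein of the mitotic spindle midzone, was at 45.03, 49.5 and 62.4 against 39.7, 29.2 and 46.3 (0.45, SE 0.10), and Cenpf, a kinetochore protein, at 49.4, 69.4 and 66.2 against 46.2, 41.2 and 49.5 (0.44, SE 0.10). Of 30 S phase genes 29 lay above 0 with a median of 0.12, 13 at an unadjusted p under 0.05 and 0 calls in edgeR and in DESeq2. Over all genes tested against other IgG cells, 48.0% lay above 0, with a median of -0.006. Of 35 G2 and M phase genes 25 lay above 0, with a median of 0.06 and Cenpf as the only call. Lars2, the mitochondrial leucyl-tRNA synthetase, is named after its values were seen: it was at 989, 1637 and 748 against 841, 1262 and 616 (0.29, SE 0.04, adjusted p = 1.97e-08 in edgeR) and was the 1 gene that DESeq2 called. With each clone counted by 1 cell it did not pass (0.11, adjusted p = 0.797), and within LZ-like cells the direction turned and passed (-0.73, SE 0.10, adjusted p = 3.71e-07 in edgeR). Bmyc and Gsn (gelsolin) were lower, by 0.39 (SE 0.08) and 0.28 (SE 0.07). Bfsp2, Fos and Tnf followed at -0.25, -0.35 and -0.38 and did not pass (adjusted p = 0.0645, 0.193 and 0.195).

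**Figure D5:**
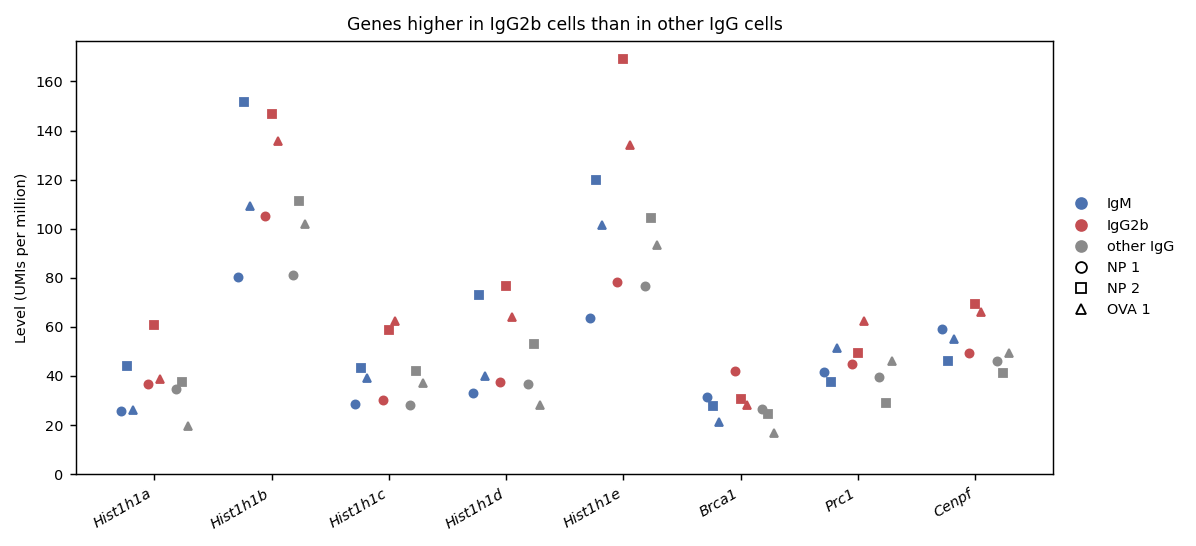
Level in CPM of 8 genes that passed in IgG2b against other IgG cells, in summed IgM (blue), IgG2b (red) and other IgG cells (grey) of each library (symbols). In each library the red point lies above the grey one, by little in NP 1 for the Hist1h1 genes other than Hist1h1b.

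The other IgG cells were also set against the IgM cells, a comparison that shares the IgM sums with the one above. The log2 difference of other IgG over IgM cells was 1.59 for Slpi, 1.21 for Tox, 0.80 for Lmo2, -1.39 for Klf2, -0.92 for Cd72 and -0.57 for Ly6a. In that comparison 415 of 9953 genes passed (4.17%), 170 higher (1.71%) and 245 lower (2.46%). Set directly against other IgG cells, 4 of the 181 IgG2b genes tested there passed. Cxcr3 was at 10.6, 17.97 and 45.4 in IgG2b cells and 8.49, 18.7 and 26.8 in other IgG cells, with a log2 difference of 0.47 (SE 0.15) that did not pass (adjusted p = 0.356). Plac8 was at 5.004, 0 and 11.6 in IgG2b cells and 1.19, 0.873 and 3.77 in other IgG cells, a log2 difference of 1.45 that did not pass (adjusted p = 0.192). The memory and naive list had a median of -0.05 in IgG2b against other IgG cells, with 0 calls among 18 tested in edgeR and in DESeq2 and 5 at an unadjusted p under 0.05.

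The difference between IgG2b and IgM cells was also set against the antigen. Of 9705 genes, 13 (0.134%) had an IgG2b minus IgM difference that differed between OVA 1 and the NP libraries in edgeR, 5 higher (0.0515%) and 8 lower (0.0824%), while 581 had an unadjusted p under 0.05. DESeq2 called 0, with 25 at an unadjusted p under 0.05. The fit has 1 OVA library and 1 residual degree of freedom. Ly6d, a surface protein of early and mature B cells, was at 114, 169 and 213 in IgG2b cells and 237, 263 and 554 in IgM cells, so it was lower in every library and most so in OVA 1. Ifi27l2a, an interferon-induced gene, was at 115, 217 and 177 against 195, 291 and 442, and Apoe (apolipoprotein E) at 389, 522 and 224 against 499, 611 and 367. For these 3 genes the further fall in OVA 1 was -0.60, -0.80 and -0.46 on the log2 scale (SE 0.11, 0.11 and 0.09, adjusted p = 0.00541, 1.90e-05 and 0.00625 in edgeR).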

How the data were processed

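Gene expression and B cell receptor libraries (10x Genomics) of 3 samples were used. The authors deposited UMI counts per gene and cell and a table of receptor contigs, made with Cell Ranger and mm10 per the submitters' processing notes. The counts were summed over the cells of each library and isotype after cells under 500 genes or over 10% mitochondrial UMIs and 225 immunoglobulin genes were left out. No doublet caller was run. Between 9 and 11 cell barcodes were shared by any 2 libraries, at most 2 of them among IgG2b and IgM cells.

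Sums were tested with edgeR 4.0.16 (R 4.3.3): TMM scaling, filterByExpr, a quasi-likelihood fit with the library as block, Benjamini-Hochberg adjustment and a threshold of 0.05. Each SE given is the absolute log2 difference divided by the square root of the F value of edgeR's test. It is therefore not a separate estimate of spread. DESeq2 1.42.0 was an alternative. Cells were clustered with scanpy 1.11.5 and named from marker lists. The script was tested on simulated data. IgG2b and IgM sums of a library come from the same sorted cells, and their deviations correlated at 0.70, 0.70 and 0.81 within a library and at -0.19 to -0.46 between libraries. Deviations were taken from each isotype's mean over the libraries, which by itself pushes the values between libraries below 0. Nothing in the sources used here says that the libraries came from separate mice. With the library as block, p-values measure how the difference between isotypes varies from library to library, and this variation may be technical.

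Named were up to 15 genes a direction with the largest change among those that passed and moved one way in all 3 libraries (up to 8 for the other comparisons; where fewer than 5 passed in a direction, the 5 of smallest p), and up to 2 members a direction of each list. The members and lists were chosen with earlier results of these data known. Coordinates are from RefSeq, GRCm38.p6, in which 117 of 128 named genes were matched. Intervals are exact Clopper-Pearson at 95% and cover counting error only. Alternatives changed the cells, the clones, the depth, the libraries, the filter, the scaling or the test. The values of 1 gene that the rule names are not reported here.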

Additional observations from a re-analysis of the deposited data

Results flagged for a closer look

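For 13 genes the IgG2b minus IgM difference in OVA 1 differed from that in the NP libraries by edgeR's interaction test, and DESeq2 called 0 of them. On the log2 scale the OVA difference was lower for Hist1h3e by -1.33, for Ifi27l2a by -0.80, for Ly6d by -0.60, for Lgmn by -0.60, for Vpreb3 by -0.55, for Chchd10 by -0.53 and for Apoe by -0.46. It was higher for Hist1h2ak by 1.498, for Fscn1 by 0.97, for Il4i1 by 0.53, for Fcer2a by 0.49 and for Zbtb20 by 0.49. Fscn1, which encodes the actin-bundling protein fascin, stood at 41.9, 29.6 and 87.3 CPM in IgG2b cells and 39.8, 32.6 and 44.4 in IgM cells of NP 1, NP 2 and OVA 1. Vpreb3 stood at 248, 312 and 224 in IgG2b cells and 283, 308 and 338 in IgM cells. Dqx1 had a fitted value of -7.98, which is no bound, since it had 11, 4 and 0 UMIs in IgG2b cells and 30, 5 and 44 in IgM cells. Antigen, gate and library cannot be told apart here.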

How the results depend on the processing

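In place of 193 genes, the count that passed between IgG2b and IgM cells was 19 with DESeq2 (19 of them among the 193), 126 with heavy contigs of at least 5 UMIs (121), 293 with no filter on low counts (192), 77 with cells thinned to 2500 UMIs (65), 114 without the memory or naive-like and non-B clusters (108), 19 in DZ-like (13) and 9 in LZ-like cells (5). Leaving out 1 library gave 60 (without OVA 1) to 252 genes. Against other IgG cells the count of 14 became 1 with 1 cell per clone, 8 with 1 productive heavy chain, 1 with DESeq2, 2 in DZ-like and 1 in LZ-like cells, 3 with heavy contigs of at least 5 UMIs, 26 with no filter, 8 with the stricter cell filter, 4 with thinning and 46 without clones of 10 or more cells, and 8 (without NP 2) to 22 (without NP 1) on leaving out a library. None of the DZ-like or LZ-like calls had the direction of one of the 14, and 5 of the 8 without NP 2 and 3 of the 11 without OVA 1 were among them. For the OVA and NP contrast the count of 13 became 0 with DESeq2 and 22 without those clones. Leaving out large clones, or OVA 1 cells with IGHV1-72, and counting families once were chosen after seeing the data.

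Without the replicate block, that is with the pairing of the isotypes by library ignored, 0 genes passed against IgM (176 at an unadjusted p under 0.05) and 0 against other IgG (44), and 0 members of the germinal center factor and memory lists passed. The 4 germinal center factors became 1 in DZ-like and 0 in LZ-like cells, and 4 to 5 on leaving out a library. The 10 lower memory and naive genes became 1 with DESeq2, 0 in DZ-like and 1 in LZ-like cells, 6 with thinning, 2 without the memory or naive-like cluster and 5 to 11 on leaving out a library. The IGHV1-72 difference in OVA 1 was 7.14 points over clones, which count the sequences of 1 family separately, and with each family counted once it was 15.3, 20.2 and -2.03 points in NP 1, NP 2 and OVA 1. Signs turned for Hist1h1c (-0.066) against other IgG and for Ifngr1 (-0.093) and Lmo2 (-0.35) against IgM in DZ-like cells, and for Hist1h1e (-0.63) and Lars2 (-0.73) against other IgG and Hspa5 (-0.10) against IgM in LZ-like cells. Of 48 named genes that passed against IgM, 45 kept their direction in every setting where they were tested. Many of the 48 were not tested within DZ-like or LZ-like cells. In DZ-like cells 2 turned, 3 passed again and 11 kept their direction without passing. In LZ-like cells these counts were 1, 1 and 14. Most other settings share many of their cells with the main fit. Fewer cells enter the DZ-like and LZ-like fits. The thinned fit kept most cells but fewer UMIs: for IgG2b in NP 1, 182 of 188 cells and 455000 of 1598870 UMIs. The cause of the changes was not tested.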
